A study of Sus scrofa with 6 samples.

Results

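The genes described here are the secreted Wnt and fibroblast growth factor (FGF) ligands, their receptors and their extracellular antagonists in pig back muscle. They were chosen by name: every gene of the deposited table whose Ensembl pig identifier matched a symbol of the WNT, FZD, SFRP, DKK, FGF, FGFR or RSPO families, or FRZB, LRP5, LRP6 or AXIN. There were 38 such genes among the 17627 of the table, 28 of the Wnt pathway and 10 of the FGF pathway. Of the 73 symbols of these forms in a RefSeq gene table of the pig, 35 were not matched and are not analysed here, FGF2, FGFR2, WNT4 and WNT5A among them. FGFR1OP2, a gene whose symbol shares the first letters of the receptors, was left out.

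RNA was sequenced from longissimus dorsi, the back muscle that runs along the spine, in 3 libraries of Wannanhua pigs, a local Chinese breed, and 3 libraries of Yorkshire pigs, a lean commercial breed. All 6 samples were labelled as 5 months old, with no treatment named, while the design text of the series speaks of piglets. The comparison set out in the series title is that of gene expression between the breeds. The labels do not say whether each library came from a separate animal, so p-values reflect how far these libraries vary, in part perhaps for technical reasons. Levels are given as FPKM, fragment counts corrected for transcript length and for the mapped fragments of each library. Being per length, they can be compared between genes as far as the transcript lengths used are right, which was not checked.

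Wnt proteins are secreted lipid-modified ligands that bind Frizzled receptors together with the co-receptors LRP5 and LRP6. Binding stalls the AXIN scaffold that marks beta-catenin for destruction, and beta-catenin then acts with TCF factors on target genes. Secreted Frizzled-related proteins and Dickkopf proteins such as DKK1 hold the pathway back outside the cell. R-spondins strengthen the pathway by keeping Frizzled receptors at the cell surface. FGF ligands bind tyrosine kinase receptors with the help of heparan sulphate or Klotho proteins. In skeletal muscle, work in mice and chickens has tied both families to muscle patterning, to satellite cells and to regeneration.

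Reads recovered from the deposited scaled counts numbered 16385602 to 21056699 per library, and 10726 to 11979 genes reached 1 FPKM. Of the 8 muscle fibre markers looked for, 3 were matched. DES stood at 4380 to 5720 FPKM in Wannanhua and 2180 to 2930 FPKM in Yorkshire, and NEB at 934 to 1060 and 617 to 925 FPKM. ACTA1 stood at 34700 to 41700 FPKM in 4 libraries and was listed at 0 in Wannanhua 1 and Yorkshire 2, so a listed 0 may be a failed estimate. Wannanhua 3 stood apart from Wannanhua 1 and 2 in fibre type. The mean log2(FPKM + 1) of 6 slow-twitch genes reached 12.15 and 12.10 in Wannanhua 1 and 2, lay lower at 10.41 in Wannanhua 3, and ran from 8.74 to 10.34 across the Yorkshire libraries. For 6 fast-twitch genes that mean level was 9.43 and 9.45 in Wannanhua 1 and 2, lay higher at 11.12 in Wannanhua 3, and ran from 11.52 to 11.78 across the Yorkshire libraries. PVALB weighed on that mean, at 0.106, 8.2 and 44.9 FPKM in Wannanhua 1, 2 and 3 and 29.5 to 87.8 FPKM in Yorkshire. Each of the 6 fast-twitch genes was higher in Wannanhua 3 than in Wannanhua 1 and 2. Of these 12 genes, ANKRD2 and CSRP3 rose and CASQ1 fell in Wannanhua, with log2 fold changes of 2.77, 3.81 and -1.24 (limma adjusted p = 0.0115, 0.0397 and 0.0435). ANKRD2 and CSRP3 are stretch-responsive muscle proteins, and CASQ1 stores calcium in the sarcoplasmic reticulum. In Wannanhua 3, ANKRD2 and CSRP3 were above all Yorkshire libraries, while the other slow-twitch genes, TNNI1, TNNC1, TNNT1 and MYL3, lay within the Yorkshire range. The call of ANKRD2 was lost without Wannanhua 1 or 2 or Yorkshire 3 (limma adjusted p up to 0.0814), and that of CSRP3 without any of these or Yorkshire 2, or with no filter (up to 0.145). That of CASQ1 was lost without any library but Wannanhua 3 (limma adjusted p up to 0.176), after quantile normalization (0.115), with the replicate block (0.0743), with no filter or one at 0.1 FPKM, and in edgeR (0.0706).

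Both families were expressed at low to moderate levels, with LRP5 higher in Wannanhua as the only member past the threshold of the main test. Of the 38 members, 21 reached 1 FPKM in at least 3 libraries and were tested, and 17 did not. The highest level of any member was 41.6 FPKM, that of FRZB in Yorkshire 3, and 2 members averaged at least 10 FPKM over all libraries. FRZB, a secreted antagonist, ranked first among members in 5 of the 6 libraries, and FZD4, a Frizzled receptor, ranked first in Wannanhua 2. In mean level the order in Wannanhua opened with FRZB, FZD4, LRP5 and RSPO3, at 15.1 ± 8.7, 14.9 ± 4.2, 12.9 ± 3.4 and 11.5 ± 8.0 FPKM (SD, n = 3), levels that differed by less than their spread. In Yorkshire it opened with FRZB at 35.0 ± 7.3 FPKM, above FZD4 at 12.1 ± 3.0 FPKM in every library (SD, n = 3). AXIN1, LRP6 and WNT5B followed there at 8.63 ± 1.1, 7.11 ± 3.5 and 6.28 ± 2.4 FPKM, again within their spread. LRP5 ranked 3 in Wannanhua and 7 in Yorkshire, and RSPO3 ranked 4 and 14. WNT5B and RSPO3 had few reads per FPKM, 4.87 and 15.8, so their ranks rest on the transcript lengths used.

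**Figure D1:**
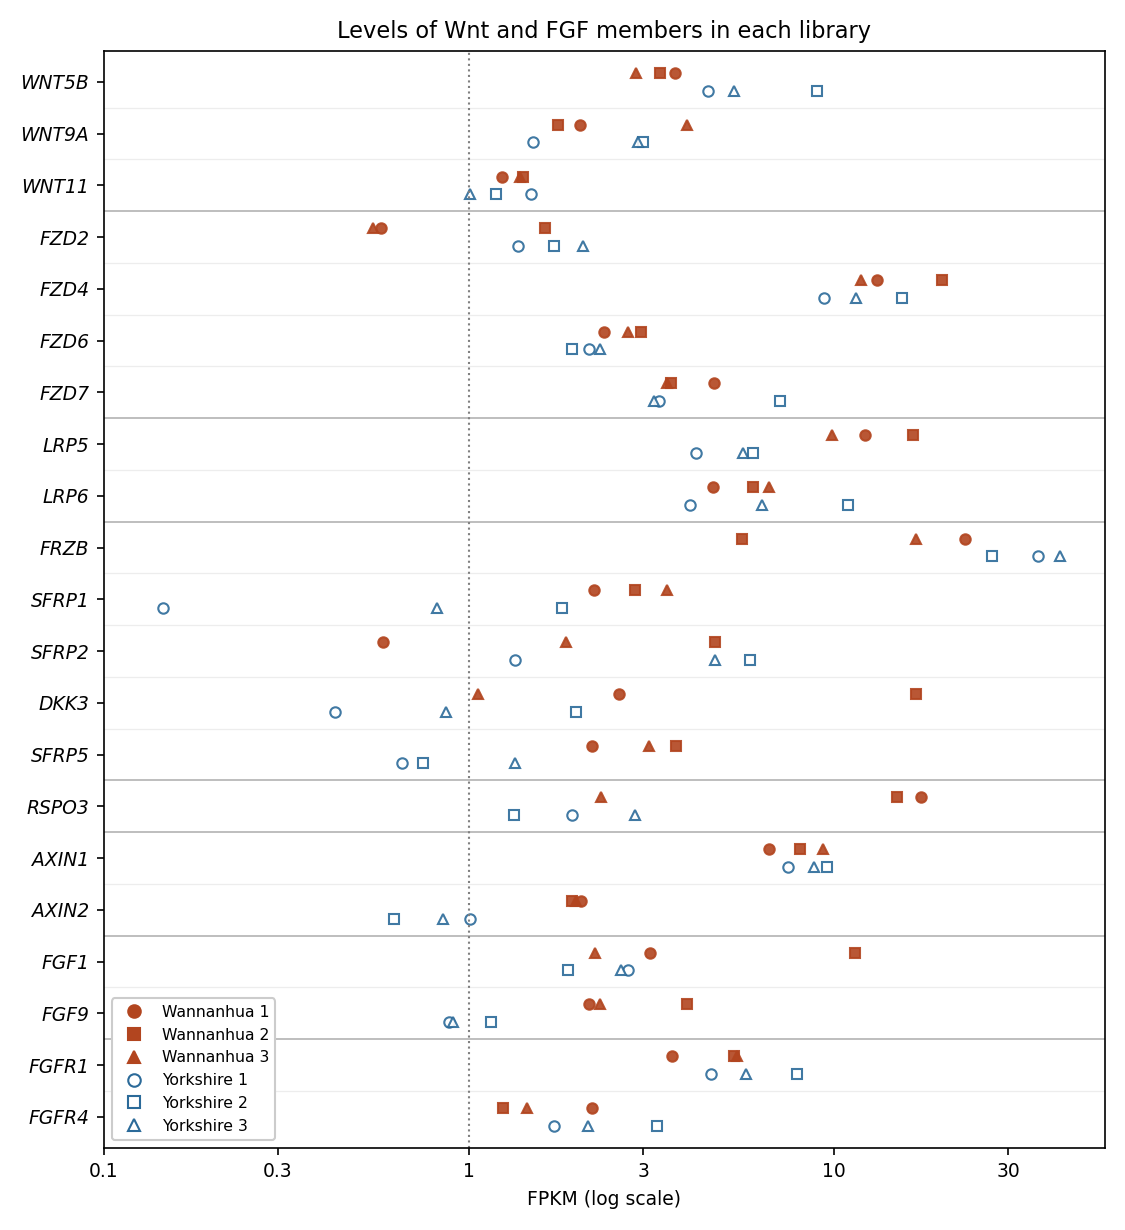
FPKM (log axis) of the 21 tested members in each library, filled marks for Wannanhua above open marks for Yorkshire, with the mark's shape giving the replicate and the dotted line 1 FPKM. LRP5, FZD6, AXIN2, FGF9, SFRP1 and SFRP5 have all 3 Wannanhua marks to the right of all 3 Yorkshire marks, FRZB and WNT5B the reverse, and RSPO3 has Wannanhua 3 among the Yorkshire marks.

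Across the table the test, limma on log2(FPKM + 1), called 3.05% of 11791 genes at an adjusted p under 0.05, 1.76% higher and 1.29% lower in Wannanhua. Of the 21 tested members, 1 was called higher (4.76%) and 0 lower, with 8 at an unadjusted p under 0.05, 6 higher and 2 lower, against 22.1% of all tested genes, 14.6% higher and 7.53% lower. A count test, edgeR on the recovered reads, tested 24 members and called 2, both higher (8.33%), against 2.87% of 13065 genes, 1.41% higher and 1.46% lower. The 3 Wannanhua libraries did not overlap the 3 Yorkshire libraries in 8 of the 21 members (38.1%), 6 higher (28.6%) and 2 lower (9.52%), against 29.9% of all tested genes, 20.3% higher and 9.63% lower. A single call among 21 members lay near the share called in the whole table, and the other shares were not tested against it. AXIN2, DKK3, FGF9, SFRP1 and SFRP5 reached 1 FPKM in all 3 Wannanhua libraries and in 1 Yorkshire library, and FZD2 in all 3 Yorkshire libraries and in 1 Wannanhua library, so these 6 were tested by virtue of the breed in which their mean was higher. The median log2 fold change of the members was 0.08, beside 0.12 for all tested genes. With 3 libraries against 3, an exact permutation test of a single gene cannot go below p = 0.10.

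**Figure D2:**
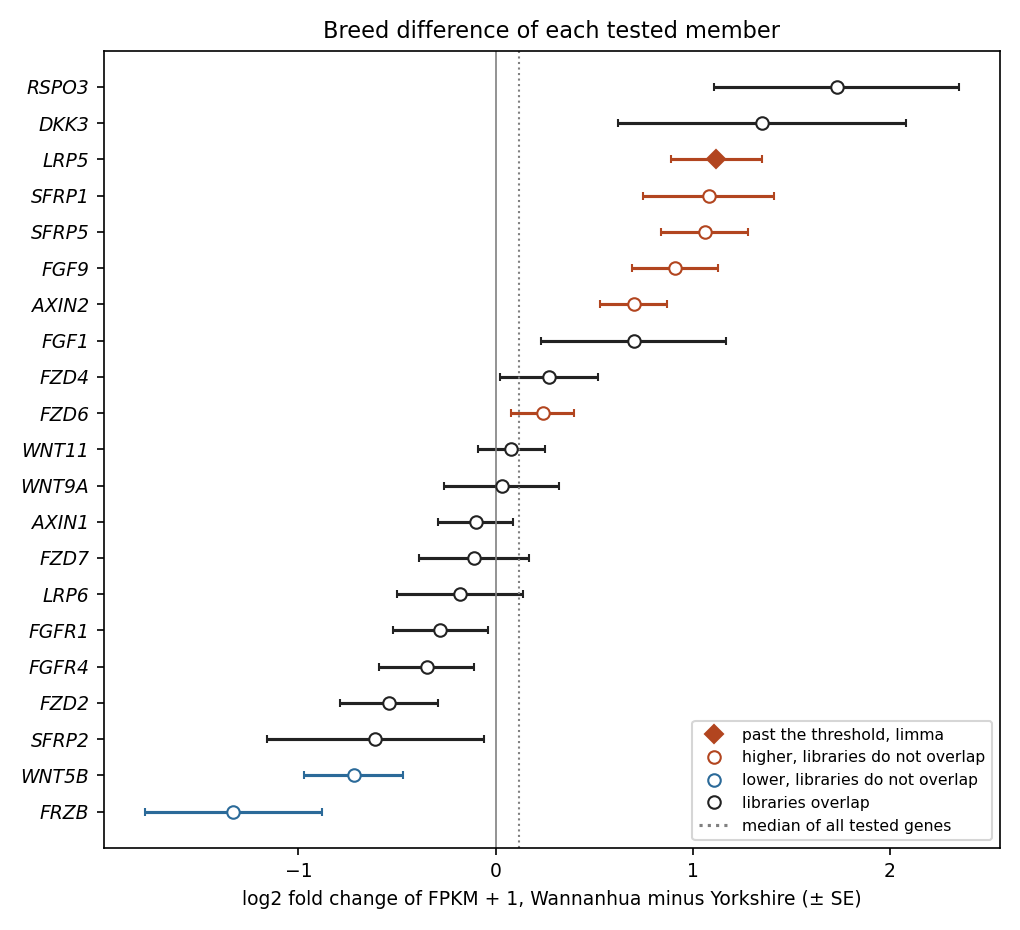
Log2 fold change of FPKM + 1, Wannanhua minus Yorkshire, with its SE, for each tested member in order of size; the dotted line is the median of all tested genes, 0.12. The filled diamond, LRP5 at 1.12, is the member past the threshold, and in this fit RSPO3 at 1.73 and DKK3 at 1.35 lie farther out with wider errors.

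LRP5 and LRP6 are the single-pass co-receptors that join Frizzled in the Wnt receptor complex. LRP5 (ENSSSCG00000012885) stood at 12.2, 16.5 and 9.86 FPKM in Wannanhua 1, 2 and 3, against 4.2, 6.02 and 5.64 FPKM in Yorkshire 1, 2 and 3. All 3 Wannanhua libraries were above all 3 Yorkshire libraries. LRP5 rose 2.43-fold by group means in Wannanhua, to 12.9 ± 3.4 FPKM against 5.29 ± 0.96 FPKM in Yorkshire (SD, n = 3; limma log2 fold change 1.12, SE 0.23, adjusted p = 0.0495). It rested on 193 to 851 reads per library. Of 16 alternatives 4 called it, among them edgeR (adjusted p = 0.0348). The call lay at the edge of the threshold and was lost in 7 settings with all libraries kept (limma adjusted p = 0.0501 to 0.0814, and 0.0616 with the replicate block) and when any library other than Wannanhua 3 was left out (0.0856 to 0.159), while the log2 fold change stayed between 0.94 and 1.29 in all 16 alternatives. In bulk tissue, more cells that express a gene and more RNA per cell cannot be told apart.

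LRP6 (ENSSSCG00000000625) stood at 4.67, 6.0 and 6.62 FPKM in Wannanhua and 4.03, 10.9 and 6.36 FPKM in Yorkshire. The breeds overlapped and Yorkshire 2 was the highest library (limma log2 fold change -0.18, SE 0.32, adjusted p = 0.773). The balance of the pair, chosen for mention after its values were seen and not tested, did not overlap between the breeds. The level of LRP5 was 2.61, 2.75 and 1.49 times that of LRP6 in Wannanhua 1, 2 and 3, against 1.04, 0.550 and 0.887 times in Yorkshire 1, 2 and 3. By FPKM, LRP5 was thus the more abundant co-receptor in every Wannanhua library, and in Yorkshire it lay close to LRP6 or below it. That order rests on the length correction, with 52.3 reads per FPKM for LRP5 and 159 for LRP6. In reads, LRP5 had 680, 851 and 484 in Wannanhua 1, 2 and 3, against 671, 952 and 962 for LRP6.

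Of 6 secreted antagonists matched, 5 were tested and 0 passed the threshold in limma, while edgeR called SFRP5. FRZB (ENSSSCG00000016018), also called secreted Frizzled-related protein 3, stood at 22.8, 5.61 and 16.8 FPKM in Wannanhua, against 36.3, 27.1 and 41.6 FPKM in Yorkshire. The breeds did not overlap, and Wannanhua 2 was far below the rest. The mean was 15.1 ± 8.7 FPKM in Wannanhua and 35.0 ± 7.3 FPKM in Yorkshire (SD, n = 3), and the difference did not pass the threshold (limma log2 fold change -1.33, SE 0.45, adjusted p = 0.148, and 0.0816 to 0.318 over 16 alternatives). Without Wannanhua 2 its log2 fold change was -0.79.

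SFRP5 (ENSSSCG00000010529) stood at 2.18, 3.69 and 3.11 FPKM in Wannanhua and 0.655, 0.750 and 1.34 FPKM in Yorkshire, with no overlap. Its mean was 3.27 times that of Yorkshire (2.99 ± 0.76 against 0.916 ± 0.37 FPKM; SD, n = 3). It missed the threshold in limma (log2 fold change 1.06 ± 0.22 SE, adjusted p = 0.0543) and passed it narrowly in edgeR (log2 fold change 1.61, adjusted p = 0.0496) on 15 to 93 reads per library. SFRP1 (ENSSSCG00000025822), a related inhibitor that binds Wnt proteins, stood at 2.20, 2.85 and 3.49 FPKM in Wannanhua, against 0.145, 1.80 and 0.820 FPKM in Yorkshire. All Wannanhua libraries were again higher, and Yorkshire 1, with 10 reads, was the lowest. In limma the log2 fold change of 1.08 (SE 0.33) did not pass (adjusted p = 0.118, edgeR adjusted p = 0.226).

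The summed level of the antagonists was 30.4, 33.6 and 26.4 FPKM in Wannanhua, against 38.9, 37.6 and 49.4 FPKM in Yorkshire, lower in all Wannanhua libraries and given as a description. FRZB made up 16.7% to 74.9% of that sum in Wannanhua and 72.1% to 93.3% in Yorkshire, ranges that overlap, with the lowest value in Wannanhua 2, where DKK3 made up 49.9%. SFRP5 made up 7.16% to 11.8% in Wannanhua and 1.68% to 2.72% in Yorkshire, and SFRP1 7.24% to 13.2% and 0.372% to 4.78%. Within a library the level of FRZB was 1.52 to 10.5 times that of SFRP5 in Wannanhua and 31.0 to 55.5 times in Yorkshire, a ratio chosen after its values were seen. Among the summed levels of the other member classes, that of the FGF ligands did not overlap either. It was 4.77 to 15.8 FPKM in Wannanhua and 4.09 to 4.38 FPKM in Yorkshire, and the remaining class sums overlapped.

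**Figure D3:**
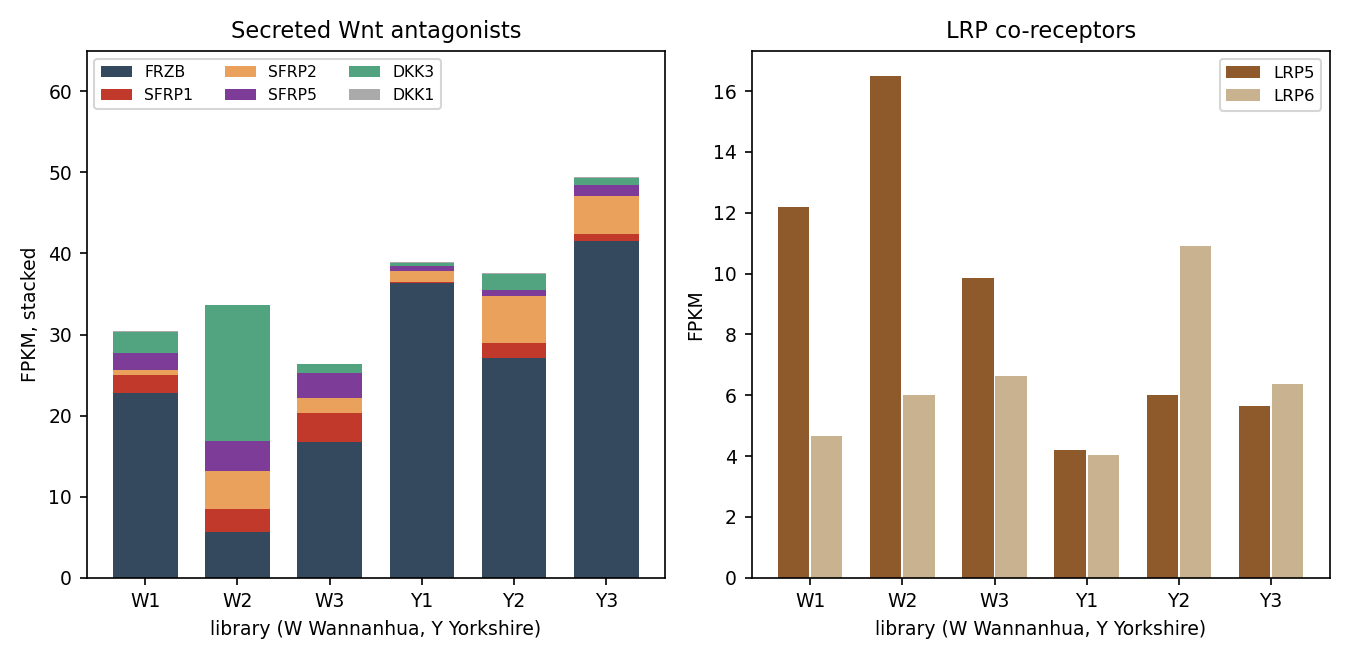
Left, FPKM of the 6 secreted antagonists stacked for each library; right, FPKM of LRP5 and LRP6, with Wannanhua libraries (W) left of Yorkshire libraries (Y) in both. The FRZB block is 27.1 FPKM or more in Yorkshire and 22.8 or less in Wannanhua, DKK3 fills 49.9% of the bar of Wannanhua 2, and the LRP5 bar exceeds the LRP6 bar in all 3 Wannanhua libraries.

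The remaining antagonists overlapped between the breeds. DKK3 (ENSSSCG00000013401), a divergent Dickkopf protein, was counted among the antagonists, and in their summed level, by its name. It stood at 2.57, 16.8 and 1.06 FPKM in Wannanhua, against 0.429, 1.96 and 0.865 FPKM in Yorkshire. Wannanhua 2 alone was far above the others, and the remaining libraries of the breeds overlapped. In limma it had a log2 fold change of 1.35 (SE 0.73, adjusted p = 0.326), and 0.45 without Wannanhua 2. SFRP2 (ENSSSCG00000009004) stood at 0.580, 4.72 and 1.85 FPKM in Wannanhua and 1.34, 5.89 and 4.71 FPKM in Yorkshire, overlapping widely (limma log2 fold change -0.61, SE 0.55, adjusted p = 0.550). DKK1, the Dickkopf protein that blocks LRP5 and LRP6, lay at 0.110 FPKM or less in every library, on 0 to 2 reads.

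R-spondin 3, RSPO3 (ENSSSCG00000004218), had a split within Wannanhua. It stood at 17.3, 14.9 and 2.30 FPKM in Wannanhua 1, 2 and 3, against 1.92, 1.33 and 2.86 FPKM in Yorkshire 1, 2 and 3. Wannanhua 1 and 2 were far above every other library, and Wannanhua 3 lay within the Yorkshire range. In limma the log2 fold change of 1.73 (SE 0.62) did not pass (adjusted p = 0.164, edgeR adjusted p = 0.0991). Without Wannanhua 3 it was 2.52 and passed (limma adjusted p = 0.00690), a value that rests on the library left out. RSPO3 rested on 22 to 265 reads per library. RSPO2, the other R-spondin matched, had 4, 2 and 0 reads in Wannanhua and was listed at 0 in all Yorkshire libraries.

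FZD10, a Frizzled receptor below the filter, had the same split. It stood at 2.28, 2.40 and 0.496 FPKM in Wannanhua, on 65, 66 and 13 reads, against 0.392, 0.282 and 0.392 FPKM in Yorkshire, on 10, 8 and 12 reads. Wannanhua 3 lay just above the Yorkshire libraries, so the breeds did not overlap. The count test did not call FZD10 (edgeR log2 fold change 2.18, adjusted p = 0.0926). The slow-twitch list was likewise highest in Wannanhua 1 and 2 and lower in Wannanhua 3. In that library its mean log2(FPKM + 1) was 10.41, just above the Yorkshire range of 8.74 to 10.34. CSRP3 and ANKRD2 weighed on that mean, at 680 and 299 FPKM, against 60.4 to 272 and 43.3 to 77.5 FPKM in Yorkshire. TNNI1, TNNC1, TNNT1 and MYL3, the rest of the list, lay within the Yorkshire range in Wannanhua 3. The part of fibre type in the levels of RSPO3 and FZD10 was not tested.

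**Figure D4:**
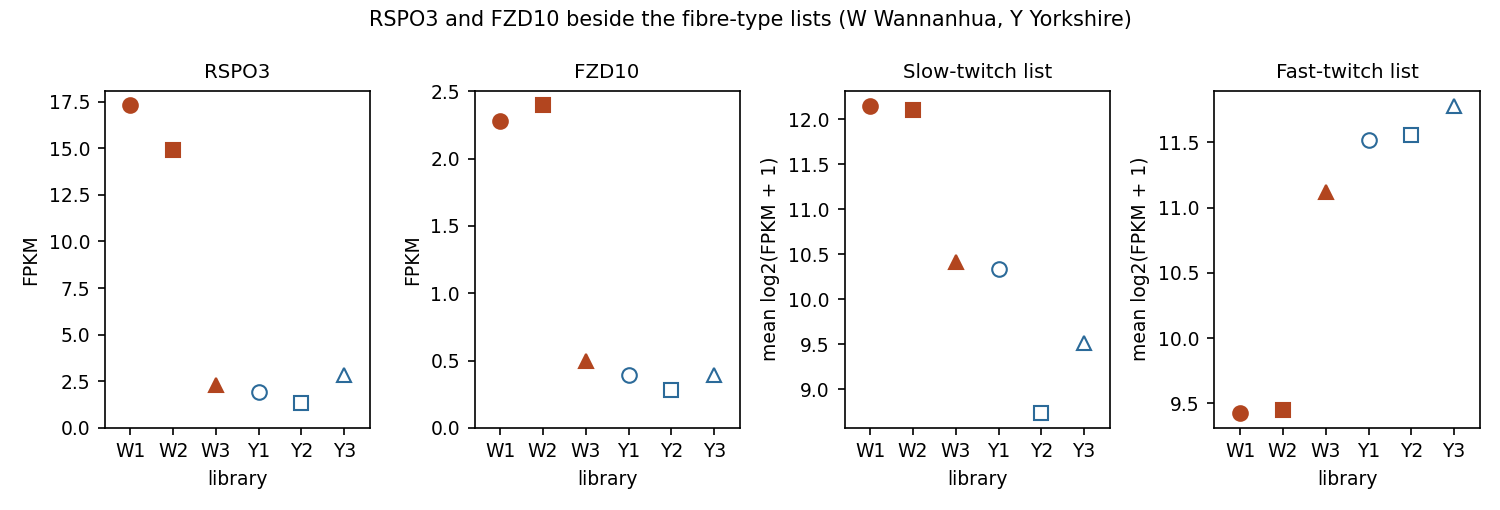
Levels of RSPO3 and FZD10 (FPKM, axes from 0) and the mean log2(FPKM + 1) of the slow-twitch and fast-twitch lists (axes not from 0) in the 3 Wannanhua (W) and 3 Yorkshire (Y) libraries. RSPO3, FZD10 and the slow-twitch list are highest in W1 and W2, while W3 lies at 2.30 FPKM for RSPO3, inside the Yorkshire range of 1.33 to 2.86 FPKM.

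FZD4 (ENSSSCG00000014920), a Frizzled receptor that also binds the ligand norrin in blood vessels, was the most abundant Frizzled transcript among those matched and did not differ detectably. It stood at 13.1, 19.8 and 11.9 FPKM in Wannanhua and 9.42, 15.4 and 11.5 FPKM in Yorkshire (limma log2 fold change 0.27, SE 0.25, adjusted p = 0.567). It made up 54.8% to 61.9% of the summed Frizzled level in Wannanhua and 55.5% to 57.8% in Yorkshire, a narrow range in both. Of 7 endothelial markers, 4 were matched, and their summed level also overlapped, at 41.4 to 61.5 FPKM in Wannanhua and 44.4 to 52.6 FPKM in Yorkshire.

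The other tested Frizzled receptors were less abundant. FZD7, which in mouse muscle acts as a receptor of Wnt7a on satellite cells, stood at 4.70, 3.58 and 3.50 FPKM in Wannanhua and 3.31, 7.12 and 3.22 FPKM in Yorkshire, with Yorkshire 2 the highest (limma adjusted p = 0.851). FZD6 stood at 2.35, 2.97 and 2.72 FPKM in Wannanhua and 2.13, 1.92 and 2.28 FPKM in Yorkshire. Its breeds did not overlap, but by a small margin, and limma gave a log2 fold change of 0.24 (SE 0.16, adjusted p = 0.429). FZD2 stood at 0.573, 1.62 and 0.547 FPKM in Wannanhua and 1.36, 1.71 and 2.05 FPKM in Yorkshire, on 5 to 22 reads per library (limma log2 fold change -0.54, SE 0.25, adjusted p = 0.255). FZD9, below the filter, had 9, 26 and 4 reads in Wannanhua and 1, 4 and 1 reads in Yorkshire. FZD3 and FZD5 stayed at 0.602 FPKM or less.

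Of 8 Wnt ligands matched, 3 were tested. WNT5B (ENSSSCG00000000759), a ligand known mainly for signalling without beta-catenin, stood at 3.67, 3.33 and 2.87 FPKM in Wannanhua, against 4.52, 9.0 and 5.34 FPKM in Yorkshire. All Wannanhua libraries were below all Yorkshire libraries, and the difference did not pass (limma log2 fold change -0.72, SE 0.25, adjusted p = 0.153). Its level rested on 13 to 44 reads per library, since the table gave it 4.87 reads per FPKM, the fewest of any member. By comparison, LRP6 had 159 reads per FPKM.

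WNT9A stood at 2.02, 1.75 and 3.97 FPKM in Wannanhua and 1.5, 3.0 and 2.91 FPKM in Yorkshire, a log2 fold change of 0.03 ± 0.29 SE whose sign turned under 5 of 15 alternatives (limma adjusted p = 0.968). WNT11, a ligand of cell polarity signalling, stood at 1.23, 1.41 and 1.38 FPKM in Wannanhua and 1.48, 1.19 and 1.01 FPKM in Yorkshire, a log2 fold change of 0.08 ± 0.17 SE that was -0.03 after quantile normalization (limma adjusted p = 0.817). Neither differed beyond the spread of the libraries. WNT2B stayed between 0.226 and 0.499 FPKM in Wannanhua and between 0.212 and 0.238 FPKM in Yorkshire. WNT2, WNT7B, WNT10B and WNT16 had 0 to 10 reads per library, and WNT7B and WNT16 were listed at 0 in all Yorkshire libraries.

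The AXIN pair differed in how its members varied. AXIN2 (ENSSSCG00000017265), a scaffold that Wnt signalling itself induces in many tissues, stood at 2.03, 1.92 and 1.96 FPKM in Wannanhua, against 1.01, 0.622 and 0.852 FPKM in Yorkshire. All Wannanhua libraries lay close together and above all Yorkshire libraries, at 2.37 times their mean. AXIN2 did not pass (limma log2 fold change 0.70, SE 0.17, adjusted p = 0.0686, and 0.0665 to 0.206 over 15 alternatives), and the counts behind it were low, 26 to 30 reads in Wannanhua and 9 to 13 reads in Yorkshire. AXIN1 (ENSSSCG00000023204), its constitutive counterpart, stood at 6.62, 8.05 and 9.36 FPKM in Wannanhua and 7.48, 9.57 and 8.84 FPKM in Yorkshire, overlapping (limma log2 fold change -0.10, SE 0.19, adjusted p = 0.789). The level of AXIN1 was 3.26 to 4.79 times that of AXIN2 in Wannanhua libraries and 7.39 to 15.4 times in Yorkshire libraries, a ratio chosen after its values were seen. The size of that ratio rests on the length correction, with 53.2 reads per FPKM for AXIN1 and 14.1 for AXIN2.

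Among 7 FGF ligands matched, FGF1 and FGF9 were tested. FGF9 (ENSSSCG00000009278), a paracrine ligand that mesenchymal and epithelial tissues use in development, stood at 2.13, 3.97 and 2.28 FPKM in Wannanhua, against 0.884, 1.15 and 0.902 FPKM in Yorkshire. The breeds did not overlap, with Wannanhua 2 the highest. The mean was 2.80 ± 1.0 FPKM in Wannanhua and 0.978 ± 0.15 FPKM in Yorkshire (SD, n = 3), and the difference did not pass (limma log2 fold change 0.91, SE 0.22, adjusted p = 0.0734, edgeR adjusted p = 0.0601).

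FGF1 (ENSSSCG00000024954), a ligand that binds all FGF receptors, stood at 3.14, 11.4 and 2.21 FPKM in Wannanhua and 2.72, 1.87 and 2.61 FPKM in Yorkshire. Wannanhua 2 was far above every other library, and the remaining 5 overlapped. In limma it had a log2 fold change of 0.70 (SE 0.47, adjusted p = 0.423), and 0.11 without Wannanhua 2. DKK3 was high in the same library, and FRZB was low there.

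The other FGF ligands lay near the limit of detection. FGF18 had 1, 1 and 3 reads in Wannanhua, against 17, 21 and 5 reads in Yorkshire, or 0.0415 to 0.147 and 0.231 to 0.852 FPKM. All Wannanhua libraries were lower, and the fit without a filter did not call it (limma adjusted p = 0.149). FGF10, FGF14, FGF16 and FGF21, the last an endocrine factor that stressed muscle can release, had 0 to 14 reads per library. No breed difference was detectable for these 4 at this depth.

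FGF receptors did not differ detectably. FGFR1 (ENSSSCG00000015815) was the most abundant of the 3 receptors matched, FGFR2 not being among them. It stood at 3.61, 5.32 and 5.41 FPKM in Wannanhua and 4.60, 7.94 and 5.73 FPKM in Yorkshire (limma log2 fold change -0.28, SE 0.24, adjusted p = 0.514). FGFR4, which rises in regenerating mouse muscle, stood at 2.18, 1.24 and 1.44 FPKM in Wannanhua and 1.71, 3.28 and 2.12 FPKM in Yorkshire (limma log2 fold change -0.35, SE 0.24, adjusted p = 0.423). Both overlapped between breeds and both were highest in Yorkshire 2. FGFR3 stayed at 0.214 FPKM or less, on 0 to 3 reads.

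Some libraries held the highest or lowest level of many members at once. The same counts were not made over all tested genes, so they do not set the members apart from other genes. Of the 21 tested members, 7 had their highest level in Yorkshire 2, among them WNT5B, LRP6, FZD7, SFRP2, FGFR1 and FGFR4, and 7 in Wannanhua 2, among them FZD4, LRP5, DKK3, FGF1 and FGF9. Yorkshire 1 held the lowest level of 8 members, LRP5, SFRP1, SFRP5 and FGF9 among them, and it also had the fewest genes at 1 FPKM. The summed levels of 2 connective tissue lists were also highest in Yorkshire 2. The summed level of the 6 fibroblast markers matched of 9 was 301 to 383 FPKM in Wannanhua, against 324, 787 and 538 FPKM in Yorkshire 1, 2 and 3. The 5 tendon markers matched of 6 summed to 22 to 37.7 FPKM in Wannanhua, against 12.3, 89.6 and 16.9 FPKM in Yorkshire 1, 2 and 3. The part of these cells in the members' levels was not tested.

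Other marker lists gave ranges that mostly overlapped. Their summed levels were 42.0 to 53.6 FPKM in Wannanhua and 17.6 to 51.7 FPKM in Yorkshire for 3 of 7 adipocyte markers matched. They were 57.7 to 145 and 64.2 to 88.0 FPKM for 6 of 7 smooth muscle and pericyte markers, 11.3 to 16.2 and 4.18 to 13.3 FPKM for 3 of 7 Schwann cell markers, and 12.3 to 16.3 and 10.7 to 21.7 FPKM for 4 of 7 macrophage markers. The 7 satellite cell and myoblast markers matched of 9 summed to 156 to 237 FPKM in Wannanhua and 167 to 346 FPKM in Yorkshire. MYF6 and MYH3 made up most of that sum in every library. Taken singly, MYF5 was higher and MYOD1, CDH15 and MYH3 were lower in all Wannanhua libraries, while MYF6, MYMK and CALCR overlapped. Those that did not overlap missed the threshold (limma adjusted p = 0.109 to 0.224). The 4 T and B cell markers matched of 6 did not overlap, at 0.809 to 1.11 FPKM in Wannanhua and 1.57 to 1.66 FPKM in Yorkshire, with MS4A1 under 0.1 FPKM in all libraries. Defining markers such as ADIPOQ, PAX7, CD34 and CD3E were not among the matched genes.

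Other genes of both pathways were taken from 5 lists. The lists of modulators, signal carriers and targets held 73 matched genes, of which 52 were tested and 0 were called by limma as reported or by edgeR, with 8 at an unadjusted limma p under 0.05 and higher in Wannanhua (15.4%), beside 14.6% of all tested genes, and 0 lower, beside 7.53%. Their median log2 fold change was 0.15, beside 0.12 for all tested genes, and 34 of the 52 were positive (65.4%), beside 62.6% of all tested genes. In the list of Wnt secretion and extracellular modulators, with 8 tested and a median of 0.33, KREMEN1 had the smallest adjusted p. KREMEN1, a receptor of Dickkopf proteins, stood at 5.44, 13.8 and 4.30 FPKM in Wannanhua and 1.46, 2.54 and 3.01 FPKM in Yorkshire (limma log2 fold change 1.28, SE 0.40, adjusted p = 0.122). All its Wannanhua libraries were higher, Wannanhua 2 by the widest margin.

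Among 19 tested carriers of the Wnt signal inside the cell, with a median of 0.12, PYGO1, a nuclear partner of beta-catenin, had the smallest adjusted p. It stood at 26.1, 30.4 and 36.3 FPKM in Wannanhua and 5.68, 19.6 and 11.8 FPKM in Yorkshire (limma log2 fold change 1.39, SE 0.39, adjusted p = 0.0995). The breeds did not overlap, and Yorkshire 1 was lowest. Of the Wnt feedback and target genes other than AXIN2, 2 were tested, with a median of 0.35. MYC, a growth-promoting transcription factor, stood at 4.2, 5.68 and 3.67 FPKM in Wannanhua and 1.55, 4.83 and 2.44 FPKM in Yorkshire, overlapping (limma adjusted p = 0.348). ZNRF3, a ligase that removes Frizzled receptors, was below the filter, at 0.546, 0.639 and 0.739 FPKM in Wannanhua and 0.505, 1.23 and 0.756 FPKM in Yorkshire, and is named after its values were seen. So is BAMBI, also below the filter, at 0.427, 1.14 and 0.465 FPKM in Wannanhua and 0.269 to 0.291 FPKM in Yorkshire. BAMBI did not overlap and was not called (edgeR adjusted p = 0.207), and every other gene of that list overlapped.

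Among 16 tested FGF co-receptors and docking proteins, with a median of 0.11, PTPN11 came nearest to the threshold. PTPN11, the phosphatase SHP2 that carries the FGF receptor signal to RAS, stood at 45.3, 43.7 and 46.1 FPKM in Wannanhua and 23.1, 29.0 and 27.8 FPKM in Yorkshire. The breeds did not overlap, with a limma log2 fold change of 0.74 (SE 0.16, adjusted p = 0.0587). Over 16 alternatives its adjusted p ran from 0.0460 with a filter at 5 FPKM in limma to 0.183, with 0.122 in edgeR. Among 8 tested FGF feedback and target genes, with a median of 0.23, SPRY1 had the smallest adjusted p. SPRY1, a Sprouty inhibitor that FGF signalling induces, stood at 8.13, 12.9 and 11.9 FPKM in Wannanhua and 4.43, 6.53 and 7.21 FPKM in Yorkshire (limma log2 fold change 0.76, SE 0.24, adjusted p = 0.129). Its libraries did not overlap.

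**Figure D5:**
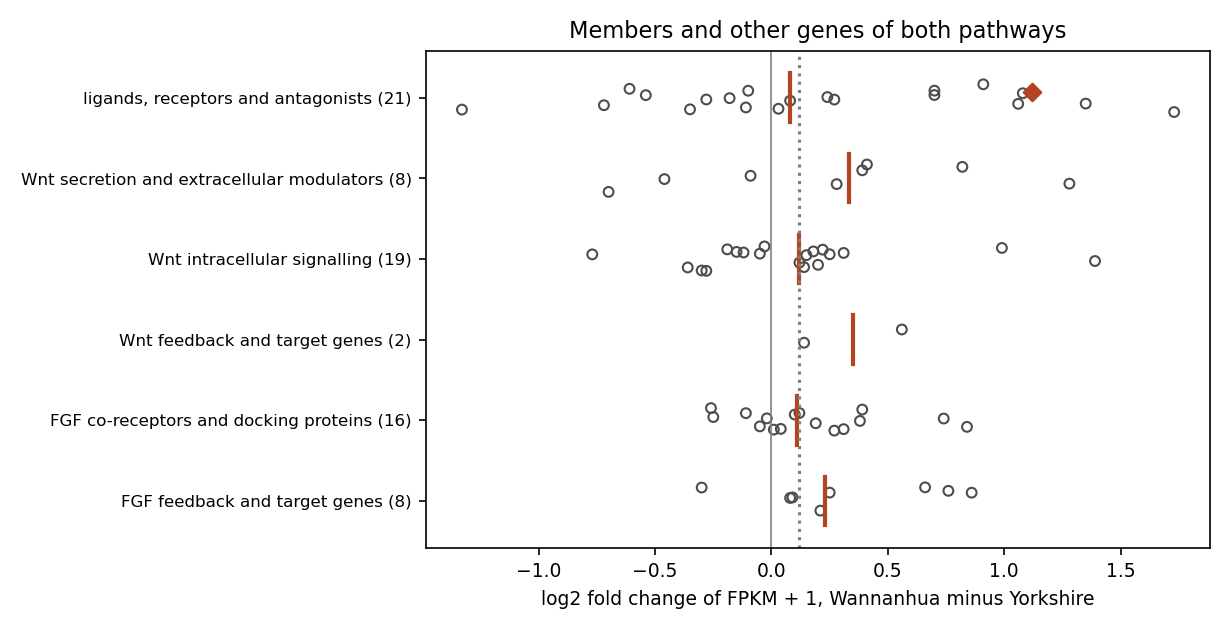
Log2 fold change of FPKM + 1, Wannanhua minus Yorkshire, of each tested gene among the members and in the 5 other lists of both pathways, with the number tested in brackets, the list's median as a bar and the median of all tested genes as a dotted line at 0.12. LRP5, the filled diamond, is the gene past the threshold, and the list medians run from 0.08 to 0.35.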

How the data were processed

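Poly-A RNA was sequenced in paired-end libraries with no strand marking, per the labels' protocols, so antisense reads could not be told apart. Per the submitters' processing notes CASAVA 1.7, TopHat2 2.0.6 and build Sscrofa10.2 were used, with no role given; the counting tool was not given in the sources used here. Per the file headers the authors deposited FPKM and counts. The deposited counts were not whole and were treated as a signal: in each library 99.71% to 99.82% of values above 0 were whole multiples of 1 step, within 0.01 of a read or a relative 1e-05. The step was sought at the most frequent value near 1, because a search from the smallest value found it in only some libraries; dividing by it gave the reads. Symbols matched 10384 of 17627 identifiers (58.9%), and no coordinates or sequences are printed, since no genome of that build was used.

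Breeds were compared with limma 3.58.1 (R 4.3.3) on log2(FPKM + 1) as the main test, with breed as its only term and trend and robust settings. Genes needed 1 FPKM in at least 3 libraries, and 7 genes were left out, none a member, because a 0 in a library stood beside a scaled count of at least 10000 elsewhere. Fold changes are Wannanhua minus Yorkshire and understate those of low genes. P-values were adjusted by Benjamini-Hochberg over all tested genes, with a threshold of 0.05. edgeR 4.0.16 (quasi-likelihood, TMM) on recovered reads was an alternative. The other alternatives were quantile normalization, a pseudocount of 0.1, no filter, filters at 0.1 and 5 FPKM, no trend or robust setting, the 7 genes kept, RLE scaling in edgeR, a replicate block by label number, and leaving out each library in turn. Both tests were checked on simulated data. Every tested member is named with its values; from each other list the genes past the threshold, or the gene with the smallest adjusted p, are named. The members and lists were chosen with earlier results of these data known.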

Additional observations from a re-analysis of the deposited data

How the results depend on the processing

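The count of 360 called genes was 338 to 395 under 6 alternatives, and was 285 with a pseudocount of 0.1 and 257 with a filter at 0.1 FPKM. It was 69 without a filter and 205 with the replicate block, and ran from 11 to 504 as each library was left out. Of the members, LRP5 alone was called as reported (1). The count of members called was 0 with the replicate block, quantile normalization, a pseudocount of 0.1, no filter, a filter at 0.1 FPKM, no trend or robust setting, or the 7 genes kept. It was 1 with a filter at 5 FPKM, 2 in edgeR with TMM or RLE scaling (LRP5 and SFRP5), and 0 to 2 as each library was left out, with LRP5 and RSPO3 called without Wannanhua 3. The adjusted p of LRP5 was 0.0501 to 0.0814 in the settings that lost it with all libraries kept, 0.0616 with the block. The cause was not tested. Signs turned only for members near 0: LRP6 and FZD7 (0.14 and 0.20 without Yorkshire 2, and down to -0.48 and -0.27 with another library left out), AXIN1 (0.01 without Wannanhua 1, and down to -0.21 with another library left out), WNT11 (-0.03 after quantile normalization) and WNT9A (-0.13 after quantile normalization, -0.05 and -0.06 in edgeR, -0.23 without Wannanhua 3 and -0.19 without Yorkshire 1, and up to 0.19 with other libraries left out). The median of all genes was 0.12 as reported and 0.00 after quantile normalization. Higher genes made up 57.8% of calls as reported, 40.8% after quantile normalization and 49.1% in edgeR. Whether the shared replicate numbers pair the samples could not be settled with 3 libraries per breed. Deviations from the breed means correlated at 0.10, -0.01 and 0.11 across genes for numbers 1, 2 and 3. For unlike numbers they correlated at -0.13 to 0.02. Wannanhua 1 and 3 correlated best with their own numbers, and Wannanhua 2 did not. Members on few reads, such as AXIN2, FZD2 and WNT5B, are limited by counting error.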
